A study of Mus musculus with 3 samples.

Results

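The 9 genes described here encode the collagens that build or anchor basement membranes. They are the 6 chains of collagen IV (*Col4a1* to *Col4a6*), *Col7a1* of the anchoring fibrils, and *Col15a1* and *Col18a1*, which encode the collagens of the multiplexin family. They were taken by gene identifier from 32285 genes in 3 single-cell RNA-Seq libraries of mouse skin wounds. The rule names the genes and uses no measured value, but the list was chosen with earlier results of these data known. Each library was made from skin wound tissue of C57BL/6J mice collected on Day 3, Day 7 or Day 14 after wounding. By the methods of the study, the mice were males aged 7 to 12 weeks, and wound tissue of 4 samples was pooled. The study named the tissues as epidermis, dermis, granulation tissue and fascia. The labels list no genetic change and no drug for any library, and no unwounded skin was analysed here. Because each day was 1 pooled library, no test between days was possible. Cell classes were compared within a library, without a test over the libraries, and every interval below covers counting error only.

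A basement membrane is the thin sheet of matrix that lies under epithelia and endothelia and wraps pericytes, nerves and muscle. Collagen IV chains fold into trimers inside the cell, and the trimers join at their ends into a network after secretion. The α1 and α2 chains form the network found in nearly all basement membranes, whereas the α3, α4, α5 and α6 chains form networks of fewer tissues, including kidney, lung and the skin epidermis. Laminins form a second network, and nidogens and perlecan link both. Collagen VII anchors the epidermal basement membrane to the dermis, collagen XV lies where basement membranes meet fibrils, and collagen XVIII is a heparan sulfate proteoglycan whose C-terminal fragment is endostatin.

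The collagen IV genes lie in head-to-head pairs, so starts of the pairs *Col4a1* and *Col4a2* and *Col4a3* and *Col4a4* are shown here, since the α1 and α2 chains of 1 trimer are read from neighboring starts. On mm10 (GRCm38), *Col4a1* occupied chr8:11198423-11312826 on the minus strand and *Col4a2* chr8:11312805-11449287 on the plus strand, and the genes overlapped at their start, with annotated 5′ ends 21 bases apart. *Col4a4* (chr1:82448423-82586849, minus) and *Col4a3* (chr1:82586921-82722059, plus) were 72 bases apart, and *Col4a6* (chrX:141165403-141474076, minus) and *Col4a5* (chrX:141475385-141689234, plus) 1309 bases apart. *Col7a1* (chr9:108953586-108984875, plus), *Col15a1* (chr4:47208161-47313167, plus) and *Col18a1* (chr10:77052178-77166548, minus) stood alone. The pairs meet at their 5′ ends, whereas the 3′ chemistry counts the opposite end of each transcript. RefSeq promoter windows of GRCm38.p6, which hold 250 bases before and 50 after a start, were matched for 8 of the 9 genes. The windows of *Col4a1* (chr8:11312777-11313076, minus strand) and *Col4a2* (chr8:11312555-11312854, plus strand) share 78 bases, which are in capitals and are reverse complements of each other. In the window of *Col4a4* (chr1:82586800-82587099, minus strand), capitals mark the 73 bases from its own start to that of *Col4a3*.
Col4a1: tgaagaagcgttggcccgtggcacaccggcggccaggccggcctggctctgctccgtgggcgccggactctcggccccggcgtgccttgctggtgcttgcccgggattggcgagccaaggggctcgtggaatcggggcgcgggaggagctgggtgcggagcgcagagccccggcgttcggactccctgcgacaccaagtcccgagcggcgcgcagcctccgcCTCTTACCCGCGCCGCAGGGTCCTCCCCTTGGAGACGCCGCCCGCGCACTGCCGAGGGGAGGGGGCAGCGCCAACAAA
Col4a2: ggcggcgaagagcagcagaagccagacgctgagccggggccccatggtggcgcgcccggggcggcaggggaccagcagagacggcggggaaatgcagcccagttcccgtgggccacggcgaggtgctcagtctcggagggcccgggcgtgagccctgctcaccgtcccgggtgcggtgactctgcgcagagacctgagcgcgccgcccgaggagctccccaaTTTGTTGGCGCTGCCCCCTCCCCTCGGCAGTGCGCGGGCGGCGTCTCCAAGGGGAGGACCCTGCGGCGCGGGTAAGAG
Col4a4: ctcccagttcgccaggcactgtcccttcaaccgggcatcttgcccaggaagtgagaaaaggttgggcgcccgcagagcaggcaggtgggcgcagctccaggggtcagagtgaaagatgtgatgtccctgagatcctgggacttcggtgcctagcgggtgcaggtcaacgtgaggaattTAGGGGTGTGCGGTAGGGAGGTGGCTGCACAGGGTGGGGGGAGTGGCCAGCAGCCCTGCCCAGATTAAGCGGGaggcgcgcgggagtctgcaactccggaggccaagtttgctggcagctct

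Both strands of the windows were searched for 3 short promoter motifs. The GC box GGGCGG was found 1 time in the *Col4a1* window and 3 times in that of *Col4a2*, and 35.7% of 32851 RefSeq windows held it. The letters CCAAT were found 1 time in each of these windows and in 37.4% of all windows. None of the 9 windows of these genes held TATAAA, which was in 13.6% of all windows. The G and C content was 74.0% for *Col4a1*, 73.7% for *Col4a2* and 63.3% for *Col4a4*, against a median of 52.7%. These matches describe letters and are not evidence of a bound factor.

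The libraries of Days 3, 7 and 14 held 5158, 22924 and 16611 barcodes with 38133650, 120940799 and 112713257 unique molecular identifiers (UMIs, each counting 1 captured RNA molecule). After filters on low counts, mitochondrial RNA and doublets, 4360, 19590 and 13510 cells were kept, and 19 to 111 barcodes were shared by a pair of libraries. The 9 genes were not used to cluster or to name cells. Cell classes were set from standard markers, and fibroblasts numbered 408, 5904 and 6654 on Days 3, 7 and 14. Endothelial cells numbered 10, 180 and 191, pericytes 10, 184 and 432, and lymphatic endothelial cells 3, 56 and 53. No cell of Day 3 was named a Schwann cell, against 10 on Day 7 and 141 on Day 14. Classes of fewer than 50 cells are given as values and entered no count of called genes. The Day 3 fibroblasts stood apart in depth, with a median of 44278 UMIs, whereas those of Days 7 and 14 had 10348.5 and 10247. Over all barcodes the medians of Days 3, 7 and 14 were 3026.5, 3292 and 5177 UMIs.

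The classes were named from their markers, so the marker levels below describe the classes and cannot check the labels. All 9 endothelial markers were detected in endothelial cells, at a summed level of 5926 CPM on Day 7 and 5214 CPM on Day 14 (CPM scales the UMIs of a gene to a fixed total over all genes of a class and day), and all 8 pericyte markers in pericytes, at 9393 and 9309 CPM. The 8 Schwann cell markers summed to 4401 CPM in the Day 14 Schwann cells, in which melanocyte markers reached 3242 CPM. Fibroblast markers were also detected in each of these classes. Their 8 genes summed to 4232 CPM in endothelial cells on Day 7 and 14621 on Day 14, 13395 and 10797 CPM in pericytes, and 16892 CPM in Day 14 Schwann cells, whereas fibroblasts themselves had 82238 and 107852 CPM. In lymphatic endothelial cells the same 8 genes summed to 4662 CPM on Day 7 and 17365 CPM on Day 14. The part that fibroblast RNA has in the values below was not tested. In the other direction, the 8 pericyte markers summed to 123 and 175 CPM in fibroblasts. *Rgs5*, the most abundant in pericytes, stood at 3.25 and 3.77 CPM in fibroblasts against 6948 and 7131 CPM in pericytes, whereas *Ndufa4l2* stood at 66.8 and 116 CPM against 285 and 330 CPM. On the endothelial side, all 9 endothelial markers were between 0.115 and 8.71 CPM in fibroblasts of both days.

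*Col4a1* and *Col4a2*, the chains of the general collagen IV network, were highest in pericytes and endothelial cells. *Col4a1* reached 3746 CPM in pericytes (95% interval 3637 to 3858) and 3230.0 CPM in endothelial cells (3135 to 3328) on Day 7. Fibroblasts had 68.6 CPM (66.6 to 70.6). In the order of Day 7 levels, lymphatic endothelial cells followed the blood vessel cells at 954 CPM, then mesenchymal cells at 231 CPM. The 10 Schwann cells had 519 CPM from 25 UMIs, and the 45 epithelial cells 63.9 CPM (41.7 to 93.6).

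On Day 14 pericytes and endothelial cells again led, and no 2 neighbors among the classes listed here had overlapping intervals. Immune classes are left out of this order, and Day 14 T cells, given below, were close to epithelial cells. *Col4a1* stood at 2471 CPM in pericytes (2399 to 2545), 1666 CPM in endothelial cells (1585 to 1751) and 986 CPM in Schwann cells (908 to 1068). Lymphatic endothelial cells had 469 CPM, mesenchymal cells 242 CPM, fibroblasts 162 CPM and epithelial cells 48.0 CPM. On Day 3, *Col4a1* was 108 CPM in fibroblasts, 3022 CPM in the 10 pericytes and 2443 CPM in the 10 endothelial cells, where 70.8% of its 432 UMIs came from 1 cell.

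**Figure D1:**
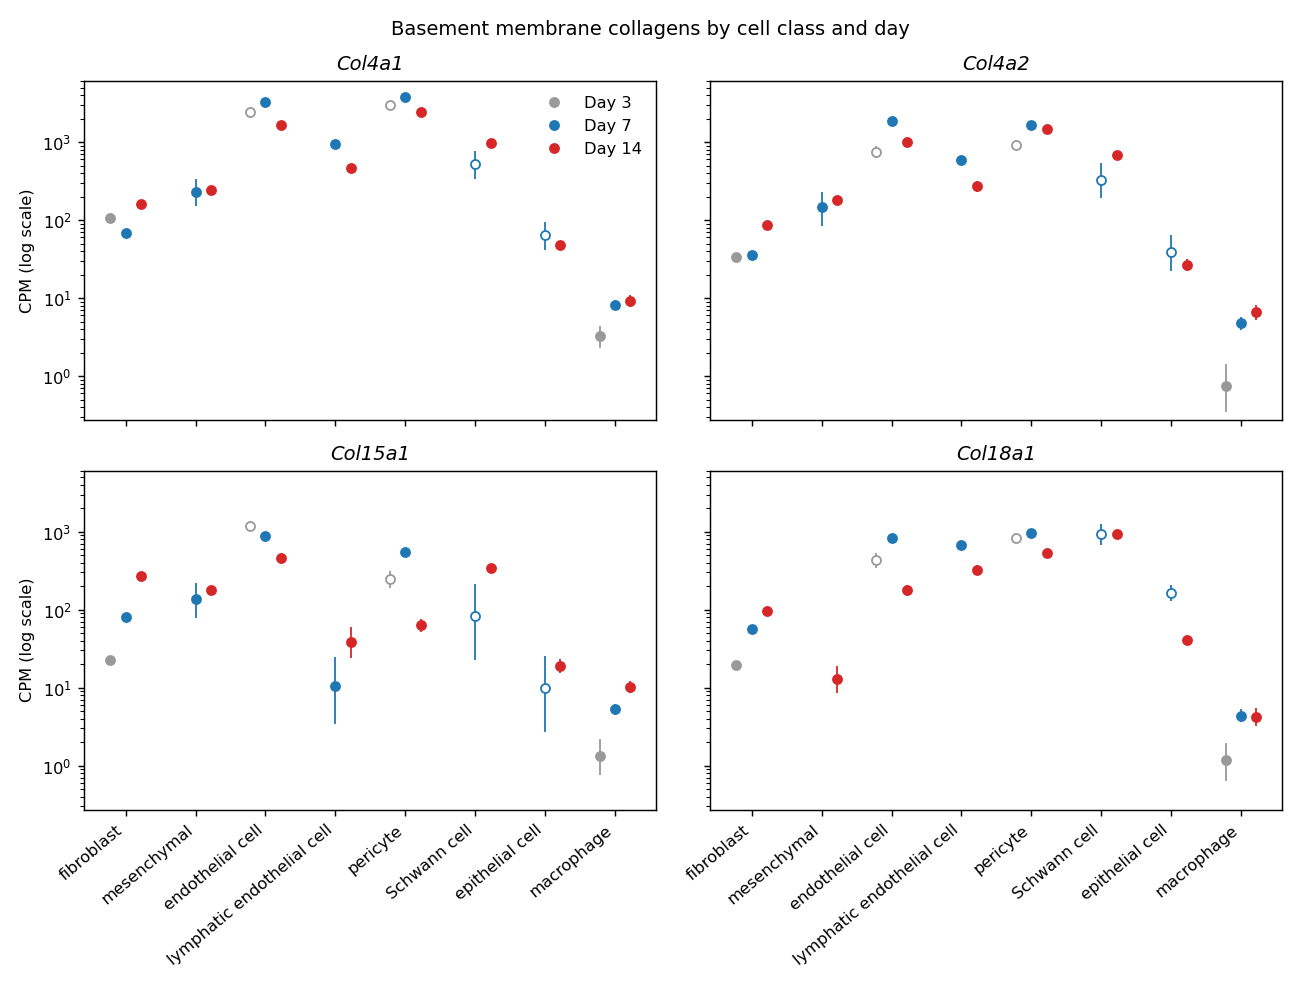
Level of *Col4a1*, *Col4a2*, *Col15a1* and *Col18a1* in 8 cell classes on Days 3, 7 and 14, in CPM on a log axis with 95% exact Poisson intervals (counting error only). Filled points are classes with at least 50 cells on that day and open points classes with 10 to 49 cells (classes with no UMI of a gene are not drawn), and *Col4a1* in pericytes and endothelial cells of Day 7 lies at 3746 and 3230.0 CPM, far above the fibroblast point at 68.6 CPM.

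*Col4a2* followed the same pattern. On Day 7 it stood at 1872 CPM in endothelial cells, 1679 CPM in pericytes and 35.7 CPM in fibroblasts, and on Day 14 at 991, 1483 and 87.3 CPM. Endothelial cells were thus above pericytes on Day 7 and below them on Day 14, and both intervals excluded the other class. Schwann cells had 692 CPM (628 to 761) on Day 14. Macrophages, used here as the background class for free RNA, had 8.20 CPM of *Col4a1* and 4.74 CPM of *Col4a2* on Day 7 and 9.23 and 6.66 CPM on Day 14. Dendritic cells were at 4.20 to 7.78 CPM for both genes on these days, whereas other immune classes were higher. For *Col4a1*, neutrophils of Day 7 had 22.4 CPM (29 UMIs) and T cells 15.3 CPM (11 UMIs), and the 313 T cells of Day 14 had 44.5 CPM.

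The share of cells with a UMI gave the same picture once each cell was thinned to 1000 UMIs. *Col4a1* was detected in 91.8% of thinned endothelial cells on Day 7 (86.6% to 95.5%) and in 89.5% of pericytes. On Day 14 it was detected in 66.9% of endothelial cells, 79.3% of pericytes and 56.7% of Schwann cells. Fibroblasts had 6.22% on Day 7 and 14.2% on Day 14. Macrophages had 0.852% and 0.606%, so the fibroblast shares lay above that background. Without thinning, *Col4a1* was found in 27.6% of Day 7 fibroblasts and in 3326 of the 6654 of Day 14, at a median of 10348.5 and 10247 UMIs per cell, and the macrophage shares 2.36% and 3.39%, at 2723 and 3749 UMIs. Thinning left out 9 endothelial cells, 3 pericytes, 5 fibroblasts and 219 macrophages on Day 7 and 28, 32, 22 and 39 on Day 14.

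The ratio of *Col4a1* to *Col4a2* UMIs lay between 1.35 and 2.23 in fibroblasts, mesenchymal, epithelial, vessel and Schwann cells on Days 7 and 14. A secreted α1α1α2 trimer holds more α1 than α2 chains, and 3′ UMI counts record RNA molecules and not transcript length. On Day 14 the ratio was 1.85 in fibroblasts (1.79 to 1.91), 1.68 in endothelial cells (1.55 to 1.82), 1.67 in pericytes (1.59 to 1.75) and 1.42 in Schwann cells (1.26 to 1.62). Mesenchymal cells had the lowest of these ratios on that day, at 1.35 (1.18 to 1.54), and epithelial cells had 1.81 (1.45 to 2.26). Schwann cells, mesenchymal cells and pericytes were below fibroblasts, with intervals that did not overlap that of fibroblasts. The endothelial interval overlapped those of fibroblasts and of pericytes. On Day 7 the ratio was 1.72 in endothelial cells (1.64 to 1.81), 1.92 in fibroblasts (1.82 to 2.02) and 2.23 in pericytes (2.12 to 2.35), and these intervals did not overlap. In Day 3 fibroblasts it was higher than on the later days, at 3.17 (2.90 to 3.46). The 10 pericytes and 10 endothelial cells of Day 3 both gave 3.25, the latter from only 3 cells with *Col4a1*. Depth also differed, with Day 3 medians of 44278 UMIs in fibroblasts, 26347 in pericytes and 2616.5 in endothelial cells. On Days 7 and 14 the medians were 10348.5 and 10247 in fibroblasts, and 5592.5 and 3932 in pericytes. Endothelial cells had 6207.5 and 3681 on these days, so Day 3 was deeper in fibroblasts and pericytes only. The part of depth in the Day 3 ratios was not tested.

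Most vessel and Schwann cells with *Col4a2* held *Col4a1* as well. Of endothelial cells with a *Col4a2* UMI, 97.6% also had *Col4a1* on Day 7 and 92.3% on Day 14. The shares were 99.4% and 96.6% in pericytes, 92.5% in Day 14 Schwann cells, and 67.5% and 80.9% in fibroblasts. They were lower in Day 14 mesenchymal cells (59.4%) and epithelial cells (57.4%), and were 2.52% and 19.5% in macrophages. Detection of a pair rises with the level and the depth of a cell, which differ between these classes.

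**Figure D2:**
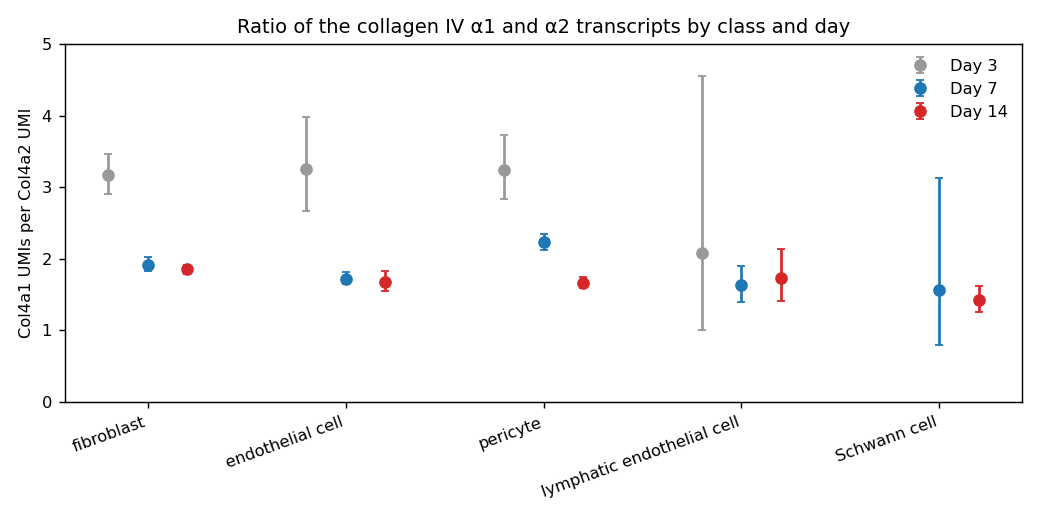
Ratio of *Col4a1* to *Col4a2* UMIs by cell class and day, with 95% exact intervals (counting error only). Of the 5 classes drawn, the Day 14 points lie between 1.42 in Schwann cells and 1.85 in fibroblasts, whereas the Day 3 fibroblast point lies at 3.17; the other Day 3 points and the Day 7 Schwann point rest on 3 to 10 cells.

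*Col15a1* separated the vessel classes from each other. On Day 7 it stood at 871 CPM in endothelial cells, 546 CPM in pericytes and 10.6 CPM (5 UMIs) in lymphatic endothelial cells, against 81.0 CPM in fibroblasts. On Day 14 endothelial cells had 463 CPM (421 to 509), Schwann cells 341 CPM (296 to 391) and fibroblasts 268 CPM (264 to 271), while pericytes had 63.3 CPM (52.2 to 76.1). Mesenchymal cells had 177 CPM, lymphatic endothelial cells 38.9 CPM and macrophages 10.2 CPM. Pericytes were thus above fibroblasts on Day 7 and below them on Day 14. In thinned cells, 34.3% of pericytes held *Col15a1* on Day 7 and 5.75% on Day 14, and the fibroblast shares were 6.80% and 21.6% (macrophages 0.620% and 0.875%).

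*Col18a1* was high in pericytes, Schwann cells and both endothelial classes. On Day 7 it stood at 977 CPM in pericytes, 841 CPM in endothelial cells and 681 CPM in lymphatic endothelial cells, and at 934 CPM in the 10 Schwann cells (45 UMIs). Fibroblasts had 56.3 CPM, and none of the 63 mesenchymal cells held a UMI at a median depth of 1557 UMIs per cell. That allows up to 4.76% of them to hold one and sets no limit on how many express the gene. On Day 14 Schwann cells were highest at 927 CPM (852 to 1006), followed by pericytes at 534 CPM (500 to 569), lymphatic endothelial cells at 325 CPM (278 to 376) and endothelial cells at 176 CPM (151 to 205). Fibroblasts had 95.9 CPM and epithelial cells 40.4 CPM. In thinned cells, *Col18a1* was detected in 53.2% of endothelial cells on Day 7 and 11.7% on Day 14, 58.6% and 38.3% of pericytes, and 49.3% of Day 14 Schwann cells (macrophages 0.389% and 0.370%).

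*Col7a1*, whose protein forms the anchoring fibrils under the epidermis, had its higher levels in epithelial cells, mesenchymal cells and fibroblasts. The 45 epithelial cells of Day 7 had 113 CPM (82.8 to 151), and the 719 of Day 14 had 36.5 CPM (31.3 to 42.3). Mesenchymal cells stood at 34.5 CPM on Day 14 (27.1 to 43.3), which overlapped the epithelial interval. Fibroblasts had 2.07, 30.3 and 12.8 CPM on Days 3, 7 and 14. Endothelial cells held 3 and 5 UMIs of *Col7a1* on Days 7 and 14 and Day 14 Schwann cells 5, so these classes were at 2.23, 5.28 and 8.20 CPM, near the 2.25 and 4.17 CPM of macrophages. On Day 7 pericytes had 16.8 CPM from 20 UMIs (10.3 to 25.9) and lymphatic endothelial cells 19.0 CPM from 9 UMIs (8.70 to 36.1), of which 66.7% came from 1 cell, and on Day 14 these classes held 7 and 0 UMIs.

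The other collagen IV chains were far lower. *Col4a4* and *Col4a5*, whose chains enter the rarer networks, had most of their UMIs in fibroblasts. Fibroblast levels were 10.4 and 16.7 CPM on Day 7 and 15.5 and 11.6 CPM on Day 14. The 121 Day 14 Schwann cells without a melanocyte UMI had 17.3 CPM of *Col4a4* from 9 UMIs (7.91 to 32.8). *Col4a5* was higher in Day 14 epithelial cells at 25.0 CPM (20.7 to 29.8), and lymphatic endothelial cells had 35.2 CPM from 19 UMIs (21.2 to 55.0). *Col4a6*, the partner of *Col4a5* in epidermis, had 44 UMIs in the Day 14 library, of which 36 came from epithelial cells. *Col4a3* had 1, 9 and 197 UMIs in the 3 libraries, and 191 of the last came from fibroblasts. Its head-to-head partner *Col4a4* had 110, 659 and 1084 UMIs in fibroblasts, so that 1 *Col4a3* UMI was found for 82.4 of *Col4a4* on Day 7 and for 5.68 on Day 14 (4.86 to 6.66).

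Endothelial cells were compared with fibroblasts of the same library. A gene was called where it differed at least 2-fold, had at least 20 UMIs over both classes and a mean of at least 5 CPM. A gene that met the UMI limit in only 1 of the groups could pass only where it is high, so calls on such genes describe the libraries and support nothing, and counts and medians over the genes tested include them. *Col4a3* and *Col4a6* did not pass this filter in this or the following comparisons with fibroblasts. On Day 7, 4 of the 7 genes tested were higher in endothelial cells, where 20.8% of all 9930 genes were called higher, and 3 were lower (13.3% of all genes). The median of the 7 was 3.43 on the log2 scale and that of all genes 0.31. The higher genes were *Col4a2* (52.4-fold, 49.5 to 55.5), *Col4a1* (47.1-fold, 45.2 to 49.1), *Col18a1* (14.9-fold, 14.0 to 16.0) and *Col15a1* (10.8-fold, 10.1 to 11.5). The lower ones were *Col4a4*, *Col4a5* and *Col7a1*, each with 2 or 3 UMIs in endothelial cells, so that they passed through fibroblasts alone. On Day 14, 2 genes were called higher (22.7% of all genes) and 3 lower (15.4%), with medians of 0.79 and 0.28. *Col4a1* was 10.3-fold (9.78 to 10.9) and *Col4a2* 11.4-fold higher (10.6 to 12.2), whereas *Col15a1* and *Col18a1* were 1.73-fold and 1.84-fold higher and were not called. Without fibroblast cluster 24, a choice made after seeing the data, the log2 ratio of *Col18a1* was 1.51 in place of 0.88, which is past 2-fold. It was also past 2-fold in 4 of the other alternatives, at 1.04 to 1.30, and *Col15a1* was in 2, at 1.00 and 1.04.

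In pericytes of Day 7, 4 genes were higher than in fibroblasts (17.9% of all genes) and 1 lower (9.19%), and the median of the 7 tested was 2.75 on the log2 scale against 0.34 for all genes. *Col4a1* was 54.6-fold higher (52.4 to 57.0), *Col4a2* 47.0-fold, *Col18a1* 17.4-fold and *Col15a1* 6.73-fold. On Day 14, 3 genes were higher (20.1% of all genes) and 3 lower (12.2%), with medians of 0.03 and 0.25. *Col4a1* was 15.3-fold, *Col4a2* 17.0-fold and *Col18a1* 5.57-fold higher, and the pericyte level of *Col15a1* was 0.237 of the fibroblast level (0.195 to 0.285). In Schwann cells of Day 14, 3 genes were higher (29.9% of all genes) and 1 lower (11.1%), with medians of 0.35 and 0.53. *Col18a1* led at 9.66-fold (8.85 to 10.5), followed by *Col4a2* at 7.93-fold (7.17 to 8.75) and *Col4a1* at 6.10-fold (5.61 to 6.62), while *Col15a1* was 1.27-fold higher (1.11 to 1.46), a direction that turned under median-of-ratios scaling (log2 ratio −0.30). The Schwann cluster held melanocyte RNA, and without the 20 cells that had a melanocyte UMI the level was 1095 CPM for *Col4a1* and 1053 CPM for *Col18a1*.

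Pericytes and endothelial cells of Day 7 were close for the network chains, with pericytes at 1.16 times the endothelial level of *Col4a1* and 0.896 times that of *Col4a2*. Of 5 genes tested there, 1 was higher in pericytes (14.0% of all genes) and none lower (12.9%); the higher one was *Col7a1*, with 20 against 3 UMIs. On Day 14, 2 of 5 were higher in pericytes (16.8% of all genes) and 1 lower (13.6%). *Col18a1* was 3.03-fold higher in pericytes (2.57 to 3.59), and *Col15a1* stood at 0.137 of the endothelial level (0.110 to 0.168). The remaining call was *Col4a5*, with 21 against 1 UMI. *Col4a5*, and *Col7a1* on Day 7, reached the limit of 20 UMIs only through the pericytes, so these calls support nothing further.

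Lymphatic endothelial cells carried less of the network chains than blood endothelial cells. Of 4 genes tested on Day 7, 3 were lower in lymphatic cells (11.7% of all genes) and none higher (10.5%). *Col4a1* was at 0.295 and *Col4a2* at 0.312 of the blood endothelial level, and *Col15a1* at 0.0121 (0.00393 to 0.0284). On Day 14, the same 3 genes were lower (11.6% of all genes), with *Col4a1* at 0.282 and *Col15a1* at 0.0841. Of 5 genes tested, 1 was higher (10.9%), namely *Col4a5* with 19 against 1 UMI. Neither class met the UMI limit alone, so this call rests on the sum of both classes and supports nothing further. *Col18a1* was at 0.810 of the blood endothelial level on Day 7 (0.713 to 0.917) and at 1.84 on Day 14 (1.48 to 2.29). On Day 14 *Col15a1* was thus lower and *Col18a1* higher in lymphatic cells.

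On Day 14, epithelial cells had less of the network chains and multiplexins than fibroblasts, and more *Col4a5* and *Col7a1*. In these cells, *Col4a5* (2.16-fold, 1.77 to 2.62) and *Col7a1* (2.85-fold, 2.41 to 3.35) were higher (23.9% of all genes were called higher), and the other 5 of 7 were lower (18.1%), with a median log2 ratio of −1.71 against 0.31 for all genes. *Col15a1* was at 0.0709 of the fibroblast level (0.0571 to 0.0870) and *Col4a1* at 0.297 (0.260 to 0.339). *Col18a1* stood at 40.4 CPM against 95.9 CPM in fibroblasts, but against 62.1 CPM in fibroblasts without cluster 24, which is short of 2-fold. The 45 epithelial cells of Day 7 had 165 CPM of *Col18a1* (67 UMIs, 128 to 209) and 2 UMIs of *Col4a5*. In mesenchymal cells of Day 14, 2 of 7 genes were called higher than in fibroblasts, near the share of all genes (30.3%). A further 3 were lower (11.5%), and the median log2 ratio was −0.59 against 0.48 for all genes. The higher ones were *Col7a1* (2.69-fold, 2.09 to 3.41) and *Col4a2* (2.06-fold, 1.85 to 2.28, an interval that includes 2-fold). *Col18a1* was among the lower genes, at 0.136 of the fibroblast level (0.0903 to 0.197).

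A high level in a small class and a low level in a large one gave comparable amounts of RNA. On Day 7, fibroblasts were 30.1% of the cells and held 31.1% of the *Col4a1* UMIs. Endothelial cells, 0.919% of the cells, held 30.9%, and pericytes, 0.939% of the cells, held 31.8%. On Day 14, fibroblasts held 58.7%, pericytes 23.0% and endothelial cells 8.23%. *Col4a2* was divided in nearly the same way, with 31.1%, 34.4% and 27.3% on Day 7 in fibroblasts, endothelial cells and pericytes. *Col15a1* UMIs came increasingly from fibroblasts, which held 59.6%, 71.3% and 91.6% of them on Days 3, 7 and 14. *Col18a1* was divided among fibroblasts (75.0%), pericytes (10.7%) and Schwann cells (6.34%) on Day 14. Of *Col7a1* UMIs, fibroblasts held 90.8% on Day 7 and 72.6% on Day 14, when epithelial cells held 14.4% and mesenchymal cells 6.01%. These shares move with the size of a class as well as with its level.

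**Figure D3:**
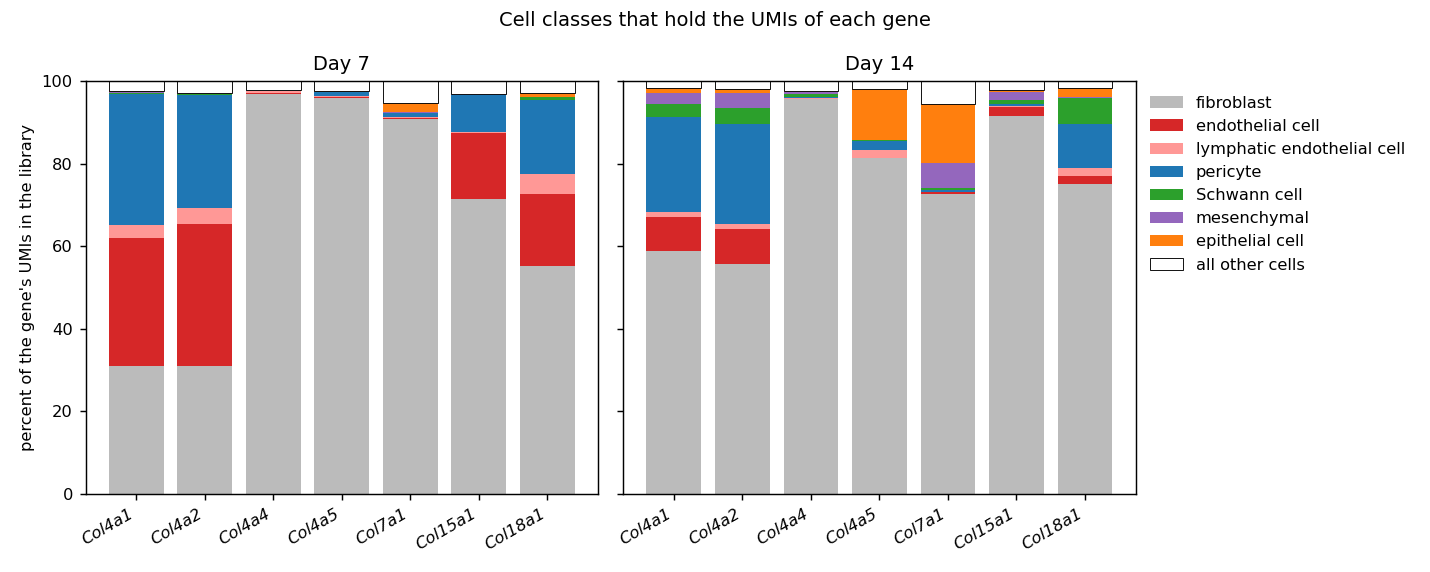
Share of each gene's UMIs that each cell class held in the Day 7 and Day 14 libraries, in percent, as stacked bars. For *Col4a1* on Day 7 the fibroblast, endothelial and pericyte parts are 31.1%, 30.9% and 31.8%, and for *Col15a1* the fibroblast part grows to 91.6% on Day 14.

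In fibroblasts, levels of the multiplexins and of *Col7a1* were higher on Day 7 than on Day 3. Of 7 genes tested, 3 were called higher (4.93% of all 9512 genes) and none lower (9.26%), with a median log2 ratio of 0.90 against −0.19 for all genes. *Col7a1* was 14.6-fold higher (10.7 to 20.4, from 41 and 1925 UMIs), *Col15a1* 3.61-fold (3.28 to 3.99) and *Col18a1* 2.86-fold (2.58 to 3.19). Over the alternatives the log2 ratio of *Col7a1* (3.87) lay between 2.36 and 4.21 and that of *Col15a1* (1.85) between 1.61 and 2.92, and both stayed past 2-fold. *Col4a1* on Day 7 was 0.637 of the Day 3 level (0.604 to 0.671), and *Col4a2* could not be told apart at 1.05 (0.963 to 1.15). The Day 3 fibroblasts were deeper, and 241 of them were in cluster 6 and 162 in cluster 18. Within these clusters the values differed from those of the class. *Col7a1* went from 2.09 to 3.89 CPM in cluster 6 and from 2.09 to 82.1 CPM in cluster 18. *Col4a2* went from 32.6 to 11.7 CPM in cluster 6 and from 32.9 to 36.9 CPM in cluster 18. *Col15a1* and *Col18a1* were higher on Day 7 in both, from 10.1 to 38.9 CPM and from 21.5 to 46.7 CPM in cluster 6.

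From Day 7 to Day 14 the fibroblast levels of most of these genes were higher. Of 7 genes, 3 were called higher (2.74% of all 9197 genes) and 1 lower (4.65%), and the median of the 7 was 0.77 on the log2 scale against −0.18 for all genes. *Col15a1* went from 81.0 to 268 CPM (3.30-fold, 3.20 to 3.41), *Col4a2* from 35.7 to 87.3 CPM (2.44-fold, 2.33 to 2.57) and *Col4a1* from 68.6 to 162 CPM (2.36-fold, 2.28 to 2.44). With each library clustered alone the log2 ratios were 0.75 for *Col4a2* and 0.71 for *Col4a1*, in place of 1.29 and 1.24, which is short of 2-fold. *Col18a1* was 1.70-fold higher (1.64 to 1.77), and *Col4a4* went from 10.4 to 15.5 CPM. *Col7a1* was at 0.424 of its Day 7 level (0.391 to 0.459), and its log2 ratio of −1.24 became −0.40, short of a call, with at least 500 genes per cell. *Col4a5* was at 0.691. *Col4a3* had 191 against 8 UMIs, a ratio of 21.8 (10.8 to 51.2), but its mean level did not reach 5 CPM.

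Endothelial cells went the other way. All 4 genes tested were lower on Day 14 than on Day 7, and 1 of them, *Col18a1*, was called lower (10.5% of all 8320 genes), with none called higher (4.77%). *Col18a1* stood at 0.210 of its Day 7 level (0.177 to 0.247). *Col4a1* was at 0.516 (0.487 to 0.547), *Col4a2* at 0.529 (0.490 to 0.571) and *Col15a1* at 0.532 (0.475 to 0.594), just short of the 2-fold call. The summed endothelial markers were 5926 and 5214 CPM on these days. In the same cells fibroblast markers went from 4232 to 14621 CPM, pericyte markers from 97.5 to 376 CPM and the median depth from 6207.5 to 3681 UMIs per cell, and their part in the lower levels was not tested. The median log2 ratio of all genes was −0.17.

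In pericytes, of the 6 genes tested, *Col15a1* differed most between the days. Its level on Day 14 was at 0.116 of its Day 7 level (0.0942 to 0.142). The log2 ratio of −3.11 became −2.01 with called doublets kept, and lay between −3.28 and −2.89 under the other alternatives. In comparison, *Col4a1* was at 0.660 and *Col18a1* at 0.546. *Col4a2* was at 0.883, and under median-of-ratios scaling its lower level was no longer seen (log2 ratio 0.0012). Of 6 genes tested, 2 were called lower (14.1% of all genes) and none higher (7.62%), the second being *Col7a1* with 7 against 20 UMIs, which met the UMI limit on Day 7 alone. Fibroblast markers in pericytes were 13395 CPM on Day 7 and 10797 CPM on Day 14. The pericyte markers did not move together. *Rgs5* was at 6948 and 7131 CPM, *Notch3* at 662 and 814 CPM and *Ndufa4l2* at 285 and 330 CPM. *Cspg4* went from 238 to 65.6 CPM, *Des* from 347 to 218 CPM and *Kcnj8* from 170 to 127 CPM. *Abcc9* went from 502 to 419 CPM and *Higd1b* from 243 to 206 CPM. The part of a different makeup of the class in these values was not tested. In lymphatic endothelial cells, *Col4a1*, *Col4a2* and *Col18a1* were called lower (15.2% of all genes), at 0.492, 0.464 and 0.477 of their Day 7 levels. *Col15a1* (21 against 5 UMIs) and *Col4a5* (19 against 5 UMIs) were called higher (11.2%), on few UMIs. Fibroblast markers in lymphatic endothelial cells went from 4662 to 17365 CPM, and their part in these values was not tested. The days are also separate libraries, so that time and library cannot be told apart.

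**Figure D4:**
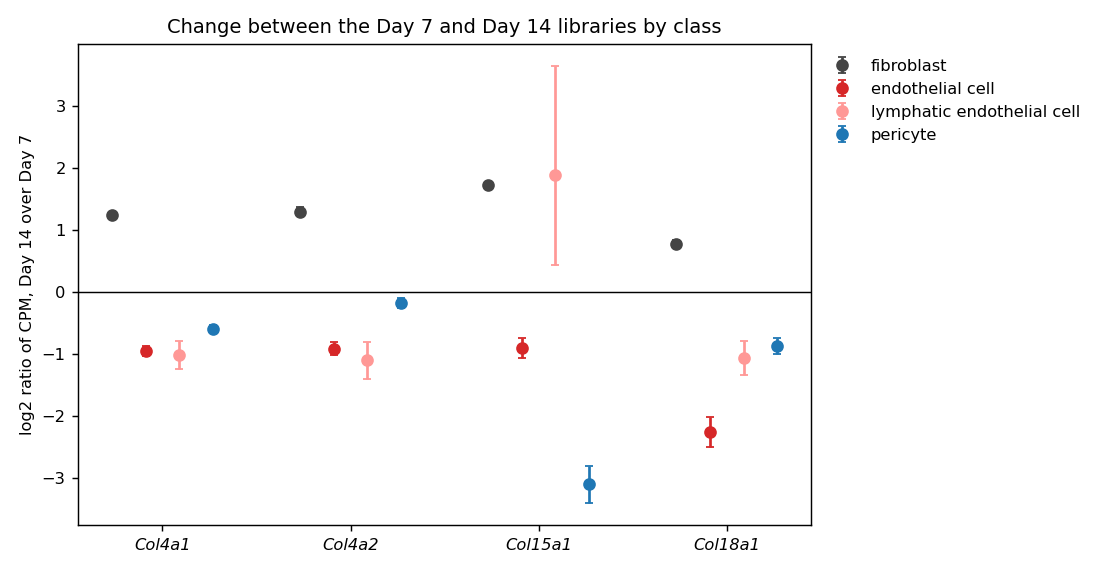
Log2 ratio of the Day 14 to the Day 7 level of each gene in fibroblasts, endothelial cells, lymphatic endothelial cells and pericytes, with 95% exact intervals (counting error only). *Col4a1*, *Col4a2*, *Col15a1* and *Col18a1* lie above 0 in fibroblasts, from 0.77 to 1.72, and below 0 in endothelial cells and pericytes. *Col15a1* in pericytes is lowest at −3.11, and *Col4a2* in pericytes lies at −0.18 (0.0012 under median-of-ratios scaling, which is not drawn).

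The fibroblast class was made of 8 clusters, whose makeup differed between the days. On Day 7, 29.1% of fibroblasts were in cluster 6 (led by *Saa3*, *Cxcl5* and *Ereg*), 26.4% in cluster 9 (*Tnn*, *Mmp13*, *Lrrc15* and *Acta2*) and 21.2% in cluster 7 (*Edn1*, *Pi16* and *C3*). On Day 14, 54.1% were in cluster 0 (*Mgp*, *Cilp*, *Fbln7* and *Eln*) and 22.5% in cluster 11 (*Igfbp2*, *Gal*, *Coch* and *Tnmd*). *Col4a1* stood at 255 CPM in cluster 0 and 23.9 CPM in cluster 6 on Day 7, and at 142 and 49.5 CPM on Day 14. Cluster 11 had 141 CPM on Day 7 and 223 CPM on Day 14. Clusters 0 and 11, which held most Day 14 fibroblasts, were 7.05% and 0.949% of those on Day 7.

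For the network chains, clusters differed in direction between the days. In the 3 clusters with at least 100 cells on both days, the log2 ratio of *Col4a1* for Day 14 over Day 7 was −0.85 in cluster 0, −0.52 in cluster 7 and −1.05 in cluster 13 (led by *Cxcl13* and *Smpd3*). *Col4a2* gave −0.84, −0.51 and −1.27. Both genes were therefore lower in each of these clusters, although they were higher over all fibroblasts. *Col15a1* gave 0.05, 0.86 and −0.99, and *Col18a1* 0.89, 0.33 and −0.55. Over all 8 clusters, *Col4a1* was higher on Day 14 in 4 and lower in 4. The higher ones were clusters 6, 9, 11 and 18. Of the clusters not yet given, cluster 9 went from 47.1 to 105 CPM, cluster 18 (cycling cells led by *Ube2c* and *Top2a*) from 80.9 to 344 CPM, and cluster 24 from 824 to 504 CPM, each with fewer than 100 cells on 1 of the days.

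**Figure D5:**
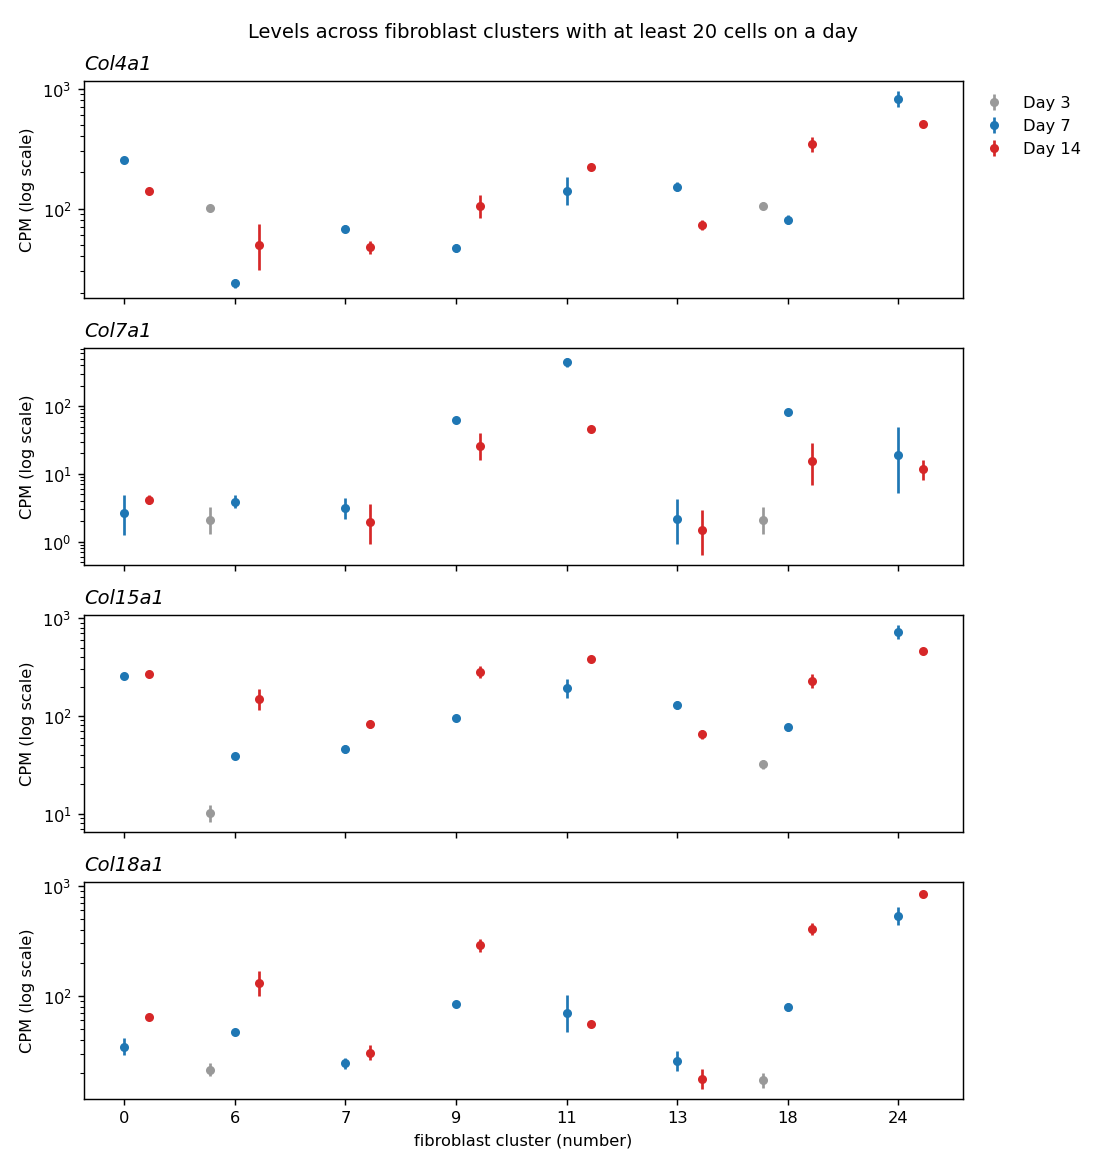
Levels of *Col4a1*, *Col7a1*, *Col15a1* and *Col18a1* in the fibroblast clusters with at least 20 cells on a day (gray, Day 3, blue, Day 7, red, Day 14), in CPM on a log axis with 95% exact intervals (counting error only). *Col18a1* in cluster 24 on Day 14 lies at 848 CPM, whereas cluster 0 has 64.1 CPM, and *Col7a1* lies highest in cluster 11 on Day 7 at 447 CPM.

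Cluster 24 was a small set with high levels of *Col18a1*, *Col4a1*, *Col4a2* and *Col15a1*, and was singled out after its values were seen. Its leading genes after *Col18a1* itself were *Cldn1* and *Kera*, and it held 279 cells on Day 14, 4.19% of the fibroblasts. It held 38.0% of the fibroblast *Col18a1* UMIs at 848 CPM, 13.4% of the *Col4a1* UMIs at 504 CPM and 7.47% of the *Col15a1* UMIs at 465 CPM. Pericyte markers summed to 45.0 CPM in these cells and to 106 CPM in cluster 0, and endothelial markers to 36.7 and 17.6 CPM. Fibroblast markers summed to 55966 CPM in cluster 24, against 102151 CPM in cluster 0 and 46630 CPM in the cycling cluster 18 on Day 14. Without cluster 24, *Col18a1* in Day 14 fibroblasts was 62.1 CPM against 54.7 CPM on Day 7, a log2 ratio of 0.18 in place of 0.77, and *Col4a1* was 146 CPM.

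*Col7a1* came from other fibroblasts. On Day 7, cluster 9 held 54.6% of its fibroblast UMIs at 61.9 CPM and the cycling cluster 18 held 28.7% at 82.1 CPM. The 56 cells of cluster 11 had 447 CPM and 9.56% of the UMIs. On Day 14, cluster 11 held 71.8% at 46.8 CPM. The marker score from which cluster 11 was named was 5.25 for fibroblasts and 3.91 for mesenchymal cells. A cluster stayed unnamed where the second score reached 0.75 of the first, and cluster 11 was just below that limit. It also held 27.2% of the *Col4a1* and 28.0% of the *Col15a1* UMIs of Day 14 fibroblasts. No alternative that left out cluster 11 alone was run. Pericyte markers summed to 512 CPM in cluster 11 on Day 14, against 106 CPM in cluster 0. Over all Day 14 fibroblasts, *Ndufa4l2* was 116 of the 175 CPM of these markers, and *Rgs5* was 3.77 CPM. *Ndufa4l2* was also among the leading genes of a Day 14 subcluster of 557 cells, 99.8% of them from cluster 11. When fibroblasts of each day were clustered again, a Day 7 subcluster led by *Acta2* and *Tagln* (521 cells) had 153 CPM of *Col7a1*, and 1 led by *Coch* and *Cyp26b1* (67 cells) had 566 CPM. On Day 14, 112 cells led by *Prss35*, *Mmp11* and *Tnn* had 329 CPM. *Col4a3* and *Col4a4* met in a Day 14 subcluster of 357 cells led by *C6*, *Myoc* and *Tnmd*, at 29.7 and 75.0 CPM.

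Endothelial cells fell into 5 subclusters, of which the largest pair is described first. Subcluster 0 (127 cells, led by *Esm1*, *Chga* and *Prnd*) had 3423 CPM of *Col4a1*, 858 CPM of *Col15a1* and 697 CPM of *Col18a1*. Subcluster 1 (125 cells, led by *Selp* and *Ackr1*, genes known from venules) had 1970 CPM, 656 CPM and 516 CPM. *Col4a1* was thus higher in the first. *Rgs5* was the fifth of its leading genes, and pericyte markers summed to 364 CPM in it and 23.99 CPM in subcluster 1, against 9393 CPM in Day 7 pericytes. The part of pericyte RNA in its levels was not tested. Both had lower levels on Day 14 than on Day 7. In subcluster 0, *Col4a1* went from 3861 to 2571 CPM (log2 ratio −0.59) and *Col18a1* had a log2 ratio of −2.05. In subcluster 1, *Col4a1* went from 2632 to 1081 CPM (−1.28) and *Col18a1* had a log2 ratio of −2.11. Subcluster 2 (83 cells, 70 of them of Day 14) had a median of 1467 UMIs per cell and 1436 CPM of *Col4a1*, and the leading genes of subcluster 3 included fibroblast genes and those of subcluster 4 keratinocyte and macrophage genes.

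Other genes of the basement membrane were read from fixed lists. Of the 4 linkers and proteoglycans, 3 were higher in endothelial cells than in fibroblasts on Day 7 (20.8% of all genes) and 1 was lower (13.3%), with a median log2 ratio of 1.38 against 0.31 for all genes. *Hspg2*, which encodes perlecan, stood at 1015 CPM in endothelial cells, 457 CPM in fibroblasts and 257 CPM in pericytes on Day 7, and at 840 CPM in Schwann cells on Day 14. *Nid1*, which encodes nidogen-1, was instead higher in fibroblasts, at 709 CPM against 335 CPM in endothelial cells on Day 7. In Day 14 Schwann cells, *Nid2* was at 246 CPM against 29.1 CPM in fibroblasts and *Agrn*, which encodes agrin, at 126 against 6.74 CPM, and 3 of 4 of this list were called higher (29.9% of all genes).

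Of 11 laminin chain genes, 7 were tested in endothelial cells against fibroblasts on Day 7, with 1 higher (20.8% of all genes) and 2 lower (13.3%) and a median log2 ratio of 0.18 against 0.31 for all genes. *Lama5*, which encodes the α5 chain, was the higher one, at 56.6 CPM in endothelial cells and 0.0629 CPM (4 UMIs) in fibroblasts. *Lama2*, the α2 chain, was at 65.7 CPM in fibroblasts on Day 7 and 170 CPM on Day 14, at 171 CPM (20 UMIs) and 231 CPM in mesenchymal cells, and at 2.23 and 15.8 CPM in endothelial cells, from 3 and 15 UMIs. *Lama2* was the 1 laminin chain of 6 tested that was called higher in fibroblasts on Day 14 than on Day 7 (2.74% of all genes). *Lama4*, the α4 chain, was at 222 CPM in fibroblasts, 275 CPM in endothelial cells and 249 CPM in pericytes on Day 7. *Lamc1*, the γ1 chain, was at 257, 291 and 295 CPM, so that these 2 laminin genes did not show the fold differences of *Col4a1* and *Col4a2*.

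Genes of collagen IV folding, modification and crosslinking were not called higher in endothelial cells or pericytes. Of 12, none was called higher (20.8% of all genes) and 8 lower (13.3%) in endothelial cells than in fibroblasts on Day 7. In pericytes none was higher (17.9%) and 2 were lower (9.19%). *Serpinh1*, which encodes the collagen chaperone HSP47, was at 3260 CPM in fibroblasts, 2298 CPM in pericytes and 1266 CPM in endothelial cells. These genes also serve the fibrillar collagens of fibroblasts. In fibroblasts, none of the 12 was higher (2.74% of all genes) and 3 were lower (4.65%) on Day 14 than on Day 7, with a median log2 ratio of −0.79 against −0.18 for all genes. *Plod2*, a lysyl hydroxylase, went from 330.1 to 81.8 CPM and *Loxl2*, a lysyl oxidase, from 513 to 254 CPM. *Pxdn*, which encodes the peroxidasin that crosslinks collagen IV, was at 293 CPM in endothelial cells and 186 CPM in fibroblasts on Day 7.

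Receptors for basement membrane proteins were mostly higher in endothelial cells, pericytes, epithelial cells and Schwann cells than in fibroblasts. Of 10, 6 were higher (20.8% of all genes) and 1 lower (13.3%) in endothelial cells than in fibroblasts on Day 7, with a median log2 ratio of 3.80 against 0.31 for all genes. In Day 7 pericytes, 5 of 7 tested were higher (17.9% of all genes) and none was lower (9.19%). In Day 14 epithelial cells, 6 of 10 were higher (23.9%) and 2 lower (18.1%). In Day 14 Schwann cells, 8 of 9 tested were higher (29.9% of all genes) and 1, *Ddr2*, was lower (11.1%). *Itga1*, which encodes the α1 integrin that binds collagen IV, was at 1088 CPM in pericytes, 135 CPM in endothelial cells and 11.5 CPM in fibroblasts on Day 7. *Itga6*, the α6 laminin receptor chain, was at 454 CPM in endothelial cells and 2.94 CPM in fibroblasts. *Dag1*, which encodes dystroglycan, was at 1396 CPM in Day 14 Schwann cells and 162 CPM in fibroblasts.

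The genes whose pattern was most like that of the members were sought over 23 pairs of class and library, among 10780 genes. These pairs share libraries and depth, so the correlations of log2 levels are a description. For *Col4a1* the closest was *Col4a2* (Pearson r = 0.995), followed by *Nr2f2* (0.969), *Bcar1* (0.939), *Sox13* (0.936) and *Mid2* (0.929). For *Col15a1* they were *Lpar4* (0.925), *Igfbp7* (0.924), *Tmem47* (0.906), *Apbb2* (0.901) and *Nynrin* (0.897). For *Col18a1* they were *Piezo2* (0.940), *Rgs16* (0.922), *Stard13* (0.912), *Phlda3* (0.905) and *Gng11* (0.899). None of these genes was on more than 1 of the 3 lists.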

How the data were processed

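Cells of 3 skin wound libraries were counted with the 10x Genomics Chromium 3′ v3.1 chemistry. The authors deposited raw UMI counts per gene and cell, made with Cell Ranger 6.0.0 on mm10 according to the submitters' processing notes; the gene annotation was not given in the sources used here. Genes were matched by Ensembl identifier, and symbols were found for 32158 of 32285. The members and lists were chosen with earlier results of these data known.

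The cell filters required 200 genes and 500 UMIs and allowed a mitochondrial share of 10%. Doublets were scored against simulated pairs (50 neighbors) and removed at 0.5 of an expected rate of 0.8% per 1000 barcodes. Counts were log-normalized, and 2000 variable genes, 30 principal components and 15 neighbors gave 34 Leiden clusters at resolution 1 (leidenalg 0.10.2, igraph 0.11.9, scikit-learn 1.9.0, Python 3.11.15). Members, listed genes, markers of RNA quality and ribosomal genes were left out of clustering. Clusters were named from at least 3 standard markers. Those whose leading genes went against a name, or whose second class scored at least 0.75 of the first, stayed unnamed (273, 1563 and 771 cells). Fibroblasts of each day and endothelial cells were clustered again at resolution 0.6.

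CPM were computed from the summed UMIs of a class in 1 library, relative to the class total, with exact Poisson intervals (scipy 1.17.1). Ratios had exact conditional binomial intervals and shares Clopper-Pearson intervals, all at 95%. UMIs remove PCR copies, and counting error alone is covered. No test was made because a day had a single library, and a difference was called at 2-fold. Named genes were the 9 members, the genes of 4 lists (laminins, linkers, assembly, receptors), and the 5 genes most correlated with *Col4a1*, *Col15a1* and *Col18a1* over pairs with at least 50 cells, among genes of at least 20 CPM. Coordinates are from GENCODE M21 and promoter windows from RefSeq. Interval code was tested on simulated data. The alternatives covered class assignment, cluster resolution, cell and doublet filters, scaling, the CPM limit, the fold and the thinning depth.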

Additional observations from a re-analysis of the deposited data

Results flagged for a closer look

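Differences between classes in their change from Day 7 to Day 14 drew attention because, as whole classes, fibroblasts moved one way and vessel cells the other for the genes below. Each class was 1 sum per library, and the difference itself was not tested. Each value below is the log2 ratio of Day 14 to Day 7 in fibroblasts minus that in the other class. Against endothelial cells the difference was 2.19 for *Col4a1*, 2.21 for *Col4a2*, 2.63 for *Col15a1* and 3.02 for *Col18a1*. Against pericytes it was 1.84, 1.47, 4.83 and 1.64 for the same genes. The pericyte ratio of *Col4a2* itself was small and became 0.0012 under median-of-ratios scaling. Against lymphatic endothelial cells it was 2.26 for *Col4a1*, 2.40 for *Col4a2* and 1.84 for *Col18a1*, whereas *Col4a5* gave −2.27, from 19 and 5 UMIs in the lymphatic cells. In lymphatic cells *Col15a1* was instead higher on Day 14, at 38.9 against 10.6 CPM, on few UMIs that met the limit on Day 14 alone. Within fibroblast clusters 0, 7 and 13 the log2 ratios were −0.85, −0.52 and −1.05 for *Col4a1* and −0.84, −0.51 and −1.27 for *Col4a2*, the direction of endothelial cells, so the class values are not a change within each cluster. In the same clusters *Col15a1* gave 0.05, 0.86 and −0.99, and *Col18a1* gave 0.89, 0.33 and −0.55. Without cluster 24, a choice made after seeing the data, the fibroblast ratio of *Col18a1* was 0.18 in place of 0.77. Fibroblast markers in endothelial cells went from 4232 to 14621 CPM over the same days, and those in pericytes from 13395 to 10797 CPM. Those in lymphatic endothelial cells went from 4662 to 17365 CPM. The part of this RNA in the differences was not tested.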

How the results depend on the processing

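No paired analysis was possible because each day was 1 library. Classes were compared within each library on its own, so no library was left out, and no comparison of classes over the 3 libraries was run, since the Day 3 library held 10 endothelial cells and 10 pericytes. The main differences, as log2 ratios of the summed *Col4a1* and *Col4a2* levels, kept their direction under every alternative run. For endothelial cells over fibroblasts on Day 14 (3.42) the values that moved beyond the interval were 3.65 with each library clustered alone, 2.98 and 3.51 at cluster resolutions 0.5 and 2, 3.49 at 5% mitochondrial UMIs, 3.12 at the full doublet rate, 3.27 without the 50 most abundant genes, 2.94 with median-of-ratios scaling and 2.91 as a mean over cells. For pericytes (3.99) they were 4.07 with classes set per cell, 4.21 alone, 4.09 at resolution 2, 4.15 and 3.93 at 5% and 20% mitochondrial UMIs, 3.60 with doublets kept, 4.04 at the full rate, 3.82 without the 50 genes, 3.62 scaled and 3.70 over cells. For Schwann cells (2.75) they were 2.96 per cell, 2.96 alone, 2.85 at resolution 2, 2.65 at 20%, 2.61 with doublets kept, 2.57 without the 50 genes, 2.10 scaled and 2.51 over cells; at 5% mitochondrial UMIs, at 500 genes per cell and at the full doublet rate no Schwann class was named. For fibroblasts, Day 14 over Day 7 (1.25), they were 1.21 per cell, 0.72 alone, 1.12 at resolution 2, 1.12 and 1.59 at 5% and 20%, 1.30 at the full rate and 1.45 scaled. For endothelial cells over the same days (−0.94) they were −0.83 per cell, −1.09 at resolution 0.5, −0.83 with doublets kept, −1.19 at the full rate and −1.11 over cells. At resolution 0.5 and at the full doublet rate no lymphatic endothelial class was named. At resolution 0.5 the class named endothelial held 236 and 244 cells on Days 7 and 14. The main setting had 180 and 191 endothelial cells and 56 and 53 lymphatic endothelial cells on these days. The cause of these shifts was not tested. Some alternatives were chosen after seeing the data. Fibroblasts without cluster 24 gave 3.57, 4.14, 2.90 and 1.16 in the order of the first 4 comparisons. Endothelial subclusters 0 and 1 alone gave 3.61 over fibroblasts and −0.83 between days, and Schwann cells without melanocyte UMIs gave 2.91. With the unnamed cluster 15 added, fibroblasts had 68.6 CPM of *Col4a1* on Day 7 and 162 CPM on Day 14. The number of members called higher in fibroblasts on Day 14 was 3, with 4 without a CPM limit (16.3% of all genes) and 5 at 1.5-fold (6.77%). With each library clustered alone, *Col4a1* (0.71) and *Col4a2* (0.75) fell short of that call. *Col7a1*, called lower, fell short at 500 genes per cell (−0.40) and as a mean over cells (−0.90). Of 540 other planned values, 534 kept their direction, whereas 312 stayed within the interval and 228 moved beyond it. The exceptions were small: *Col4a2* in fibroblasts, Day 7 over Day 3, gave −0.20 at 20% mitochondrial UMIs; *Col4a5* there gave 0.06 to 0.11 under 3 alternatives; and under median-of-ratios scaling *Col15a1* in Schwann cells over fibroblasts gave −0.30 and *Col4a2* in pericytes between days 0.0012. *Col7a1* in fibroblasts, Day 14 over Day 7, ranged from −2.71 to −0.40, and *Col15a1* in endothelial cells over fibroblasts on Day 14 from 0.21 to 1.04. Low UMI counts limit what can be read from *Col4a3*, *Col4a6* and classes under 50 cells.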
